A study of Mus musculus with 14 samples.

Results

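The genes described here form the glycolytic pathway with the hypoxia response that is linked to it: 35 genes for glucose uptake, the enzymes of glycolysis, lactate and pyruvate handling, and the hypoxia-inducible factor (HIF) system. They were listed by name and role, with no threshold on their measured values but with earlier results of these data known, and each was found once among the 24454 genes of the count table. Reads per gene had been counted in 14 RNA-seq libraries of cells sorted from forelimb buds of mouse embryos that carry EGFP in the Sox9 locus (Sox9 IRES-EGFP) on a mixed Swiss Albino background, so every group shares that allele. The cells were living cells without the blood, endothelial and epithelial surface proteins CD31, Ter119, CD45, EpCam, Gr1 and CD11b. At E10.5 (embryonic day), Sox9-negative cells were sorted as S9-JAG1+ limb bud mesenchymal progenitors (LMPs; JAG1+ and SCA-1-; 3 libraries), S9-Pαhi LMPs (high PDGFRα without JAG1 and SCA-1; 3 libraries) and S9-SCA-1+ cells (SCA-1+ without JAG1; 2 libraries), and Sox9-positive cells as S9+Pαhi osteochondrogenic progenitors (OCPs; 3 libraries). S9+PαhiCol2a1+ chondroblasts (3 libraries) were sorted at E11.5 from the Sox9-positive cells with high PDGFRα, and since the others are from E10.5, population and stage cannot be told apart there. The study calls the libraries of a population biological replicates, and whether they came from separate litters is not given in the sources used here.

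Glycolysis turns glucose into pyruvate and yields ATP without oxygen. Glucose enters through transporters of the Slc2a family, hexokinases and phosphofructokinases commit it to the pathway, and pyruvate is either reduced to lactate by lactate dehydrogenase and exported by Slc16a carriers or passed to the mitochondria, an entry that the pyruvate dehydrogenase kinases (Pdk) hold back. Under low oxygen HIF-1 raises many of these genes, while the prolyl hydroxylases of the Egln family mark HIF-α for breakdown when oxygen is present. The early limb bud is known for active glycolysis in its distal growing part, and cartilage forms as a tissue without vessels.

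The libraries held between 20316583 and 29162751 counted reads. Values are given in CPM, counts per 1000000 reads after scaling of the library totals, and a difference was called where the quasi-likelihood test of edgeR gave a Benjamini-Hochberg adjusted p of at most 0.1 and the absolute log2 fold change at least 1.2. Values after ± are standard deviations over the libraries of a population, 3 for each but S9-SCA-1+ cells, with 2. Differences that met the adjusted p alone are described as past the p threshold. In bulk samples such as these, fewer cells of a type and less RNA per cell cannot be told apart. Of the 5 gate genes, Pdgfra and Col2a1 are not given here, and the Jag1 level in chondroblasts is given below. Jag1 averaged 296 CPM in S9-JAG1+ LMPs and 11.8 CPM in S9-Pαhi LMPs, and Sox9 reached 437 CPM in OCPs and 536 CPM in chondroblasts against 62.3 CPM or less in the other populations. Ly6a, the gene of SCA-1, averaged 3.23 CPM in S9-SCA-1+ cells and no more than 0.248 CPM elsewhere. The 10 myoblast markers summed to between 1537 and 1538 CPM in the S9-SCA-1+ libraries and to no more than 12.7 CPM in any other library, with no marker at 0 there. Red blood cell markers, 13 genes for the globins and the erythroid program, summed to 146 CPM in S9-SCA-1+ replicate 2 and 4109 CPM in replicate 3, against 5.31 to 100.2 CPM in the other 12 libraries. OCP replicate 2 stood apart from the other OCP libraries, with the highest summed level of the 12 dissociation response genes (2716 CPM, against 1500 and 1959) and of the 10 chondroblast markers (2165 CPM, against 1546 and 2011). It was the lowest OCP library for 23 of the 35 members, and several results that rest on it are given with and without it.

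Every member passed the filter on low counts, and 31 of 35 differed among the 5 populations in the joint test, where 74.8% of all 15125 tested genes did. The summed level of all members was highest in S9-JAG1+ LMPs, at 7362 ± 648 CPM (SD, n = 3), followed by S9-SCA-1+ cells at 6796 ± 148 (SD, n = 2) and S9-Pαhi LMPs at 6472 ± 706 (n = 3). It was 4499 ± 972 CPM in OCPs and 3651 ± 189 in chondroblasts (n = 3 each), and no OCP or chondroblast library reached the lowest library of the other 3 populations. The decline lay in the enzymes and in lactate and pyruvate handling. Lower glycolysis went from 3234 ± 221 CPM in S9-JAG1+ LMPs to 1830 ± 498 in OCPs and 1160 ± 92.0 in chondroblasts, while the HIF group stayed between 468 and 521 CPM in the population means. Glucose uptake had another order, with 154 ± 11.6 CPM in S9-JAG1+ LMPs, 79.5 ± 13.2 in OCPs and 107 ± 10.2 in chondroblasts. Such sums are led by the most abundant genes, since Pkm alone averaged 1678 CPM over the 14 libraries. Single members were highest in S9-JAG1+ LMPs in 14 cases, in S9-SCA-1+ cells in 9, in chondroblasts in 6, and in S9-Pαhi LMPs and OCPs in 3 each.

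**Figure D1:**
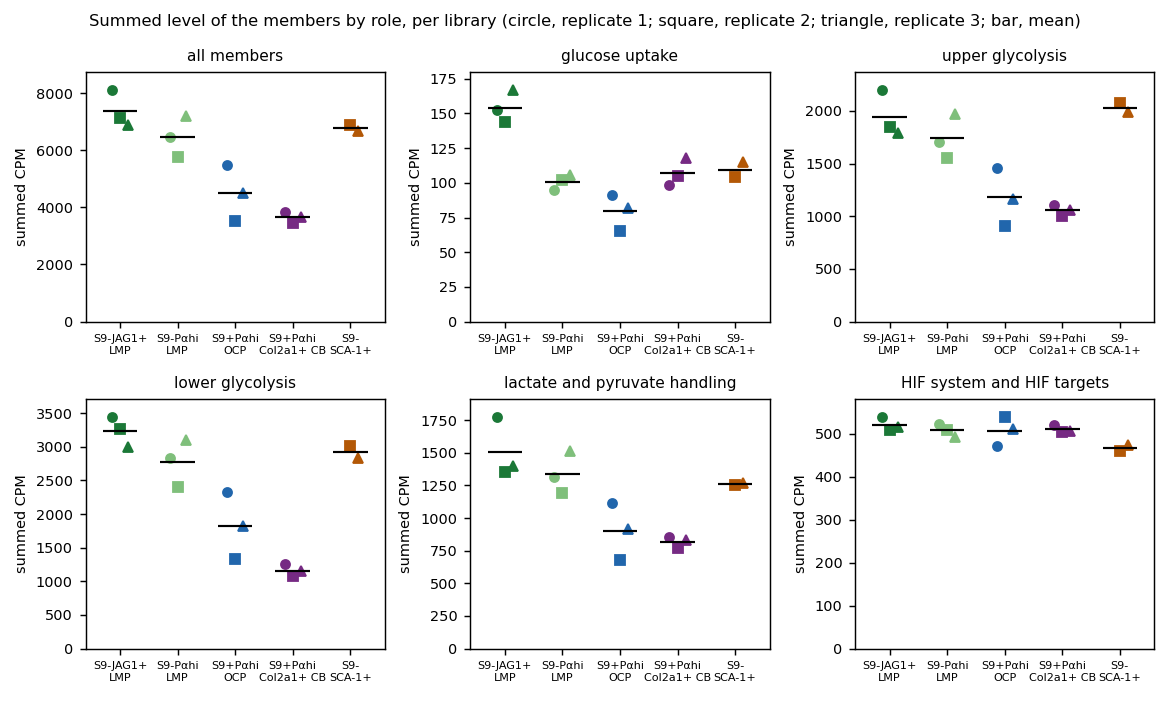
Summed CPM of all members and of each role (vertical axes, from 0) in each of the 14 libraries, by population (horizontal axes), with the mean as a bar. Glycolysis and lactate handling are lower in OCPs and chondroblasts, at 4499 and 3651 CPM for all members, while the HIF group lies between 461 and 539 CPM in every library.

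**Figure D2:**
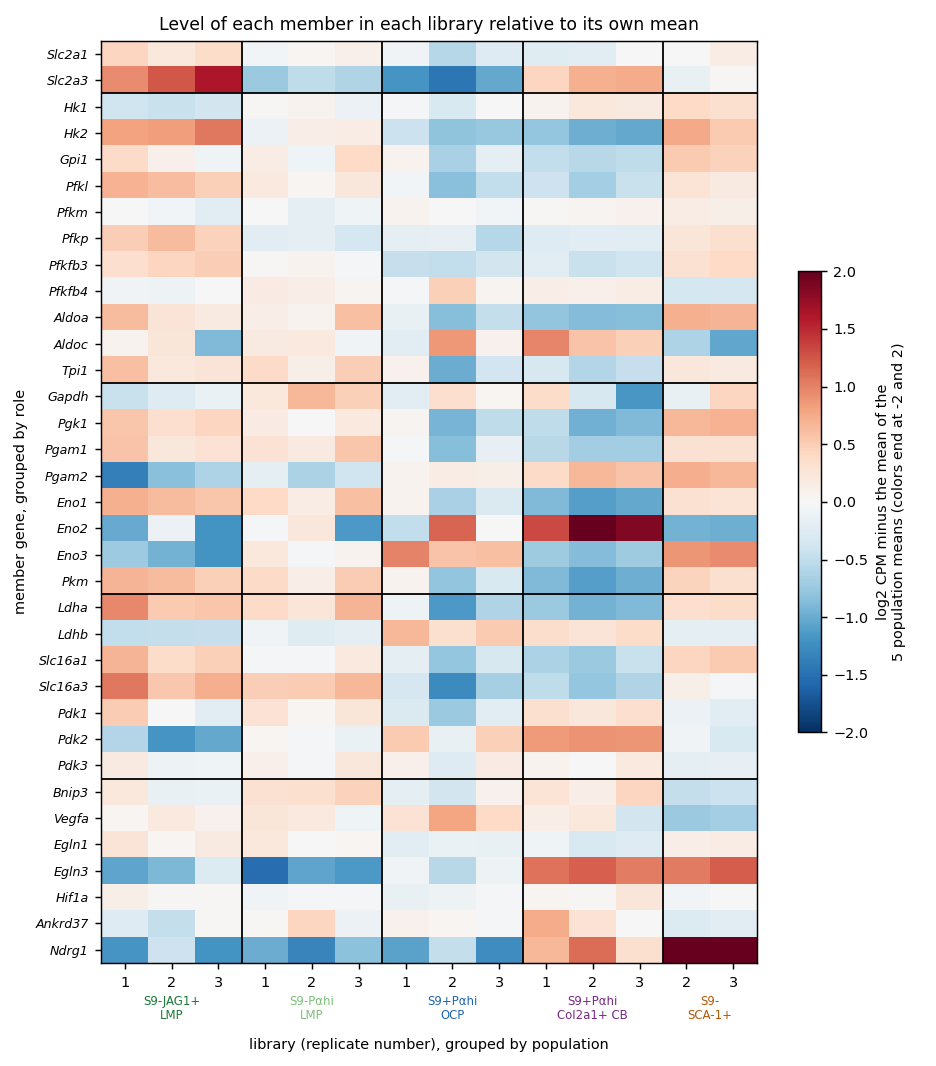
Log2 CPM of each of the 35 members (rows, by role) in each of the 14 libraries (columns, by population), as the difference from the mean of the 5 population means. Most enzymes are red in S9-JAG1+ LMPs and blue in OCPs and chondroblasts, while Eno3, Ldhb and Pdk2 are blue in S9-JAG1+ LMPs.

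Between S9-JAG1+ LMPs and OCPs 26 of the 35 members were past the p threshold. From the former to the latter 18 members fell and 8 rose past the p threshold, where 21.9% of all tested genes were lower and 25.8% higher. Of these, 4 were called lower and 2 higher, as 3.46% and 9.03% of all genes were. From S9-Pαhi LMPs to OCPs 17 members fell and 4 rose past the p threshold (8.35% and 11.8% of all genes), but only Slc16a3 was called, in the direction in which 1.36% of all genes were, with 3.48% called higher. The median log2 fold change over the 35 members was -0.32 against S9-JAG1+ LMPs and -0.31 against S9-Pαhi LMPs, beside medians over all genes of 0.03 and 0.02. These 2 comparisons share the OCP libraries. Without OCP replicate 2 the p threshold was passed by 14 members lower and 4 higher against S9-Pαhi LMPs, and none of them was called. Without S9-Pαhi LMP replicate 3 the counts there were 11 lower and 3 higher, and without S9-JAG1+ LMP replicate 1 those against S9-JAG1+ LMPs were 16 lower and 5 higher.

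Between the LMPs, 7 members were higher and 6 lower in S9-JAG1+ than in S9-Pαhi cells past the p threshold (12.8% and 15.2% of all genes), and 1, Slc2a3, was called higher, as 2.58% of all genes were, and none lower, as 4.42% were. From OCPs to chondroblasts 9 members rose and 4 fell past the p threshold (18.3% and 16.5%), with 4 called higher and 1 lower (6.60% and 1.16%). Leaving out OCP replicate 2 made this 8 risen and 14 fallen, and leaving out chondroblast replicate 1 made it 9 and 7. For S9-SCA-1+ cells the reference was the average of the 4 remaining populations, and there 18 members were higher and 6 lower (23.5% and 22.8%), with 2 called higher and 1 lower (4.46% and 6.80%). With replicate 3 of these cells, which held most of their red blood cell transcripts, or replicate 2 left out, 1 library of them remained. Fewer members then passed the p threshold in each direction.

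**Figure D3:**
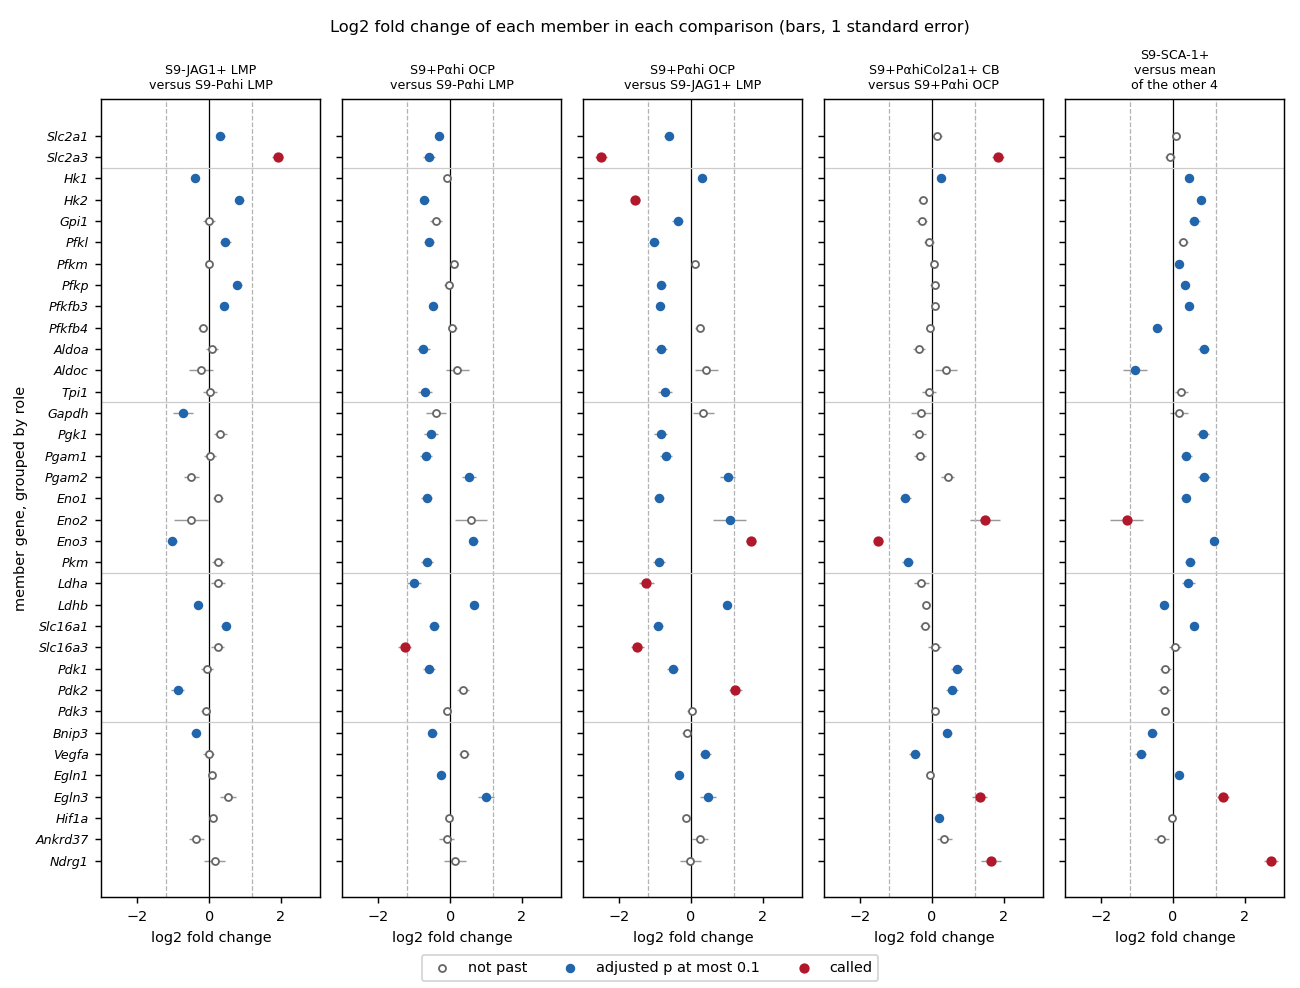
Log2 fold change (horizontal axes, first population minus second) of each of the 35 members (rows, by role) in the 5 comparisons, with bars of 1 standard error, dashed lines at -1.2 and 1.2, and color for the test. Slc2a3 at -2.50 (OCPs against S9-JAG1+ LMPs) and Ndrg1 at 2.72 (S9-SCA-1+ cells) lie farthest from 0.

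For glucose uptake, Slc2a3, the high-affinity transporter GLUT3, had the lower level but the wider fold contrast of the 2 transporters. Its level was 34.0, 41.7 and 54.0 CPM in S9-JAG1+ LMPs, 10.6, 12.4 and 11.7 CPM in S9-Pαhi LMPs, and 7.75, 6.47 and 8.64 CPM in OCPs. It was 23.8, 28.7 and 29.6 CPM in chondroblasts and 15.99 and 17.8 CPM in S9-SCA-1+ cells. No 2 populations overlapped. Slc2a3 was higher in S9-JAG1+ than in S9-Pαhi LMPs by a log2 fold change of 1.91 (SE 0.16; adjusted p = 1.49e-06, edgeR). It was lower in OCPs than in S9-JAG1+ LMPs, at -2.50 (SE 0.17; adjusted p = 6.21e-08), and higher in chondroblasts than in OCPs, at 1.84 (SE 0.16; adjusted p = 4.77e-06). Jag1, the gate gene, was also called in these comparisons, higher in chondroblasts (119 CPM) than in OCPs (19.7 CPM). Slc2a3 was also lower in OCPs than in S9-Pαhi LMPs, at -0.59 (SE 0.17; adjusted p = 0.0322, edgeR). Without OCP replicate 2 this difference was -0.50 (adjusted p = 0.104). Slc2a1, which encodes the widespread transporter GLUT1, was the more abundant of the pair per length. It held 118, 102 and 113 CPM in S9-JAG1+ LMPs, 84.1, 89.9 and 93.8 in S9-Pαhi LMPs, 83.7, 58.8 and 73.1 in OCPs, 74.3, 75.9 and 88.5 in chondroblasts, and 88.3 and 96.9 in S9-SCA-1+ cells. It was past the p threshold in the 3 comparisons among S9-JAG1+ LMPs, S9-Pαhi LMPs and OCPs, but was not called in any. Against S9-Pαhi LMPs, leaving out single libraries put its adjusted p as high as 0.213 for S9-JAG1+ LMPs (without S9-Pαhi LMP replicate 1) and 0.269 for OCPs (without OCP replicate 2). Per length, Slc2a3 made up 20.2% ± 4.06 of the reads of these transporters in S9-JAG1+ LMPs and 18.3% ± 1.30 in chondroblasts, and 6.49% ± 0.745 in OCPs (SD, n = 3 each). Such shares are taken within a library and do not depend on how the library totals are scaled.

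**Figure D4:**
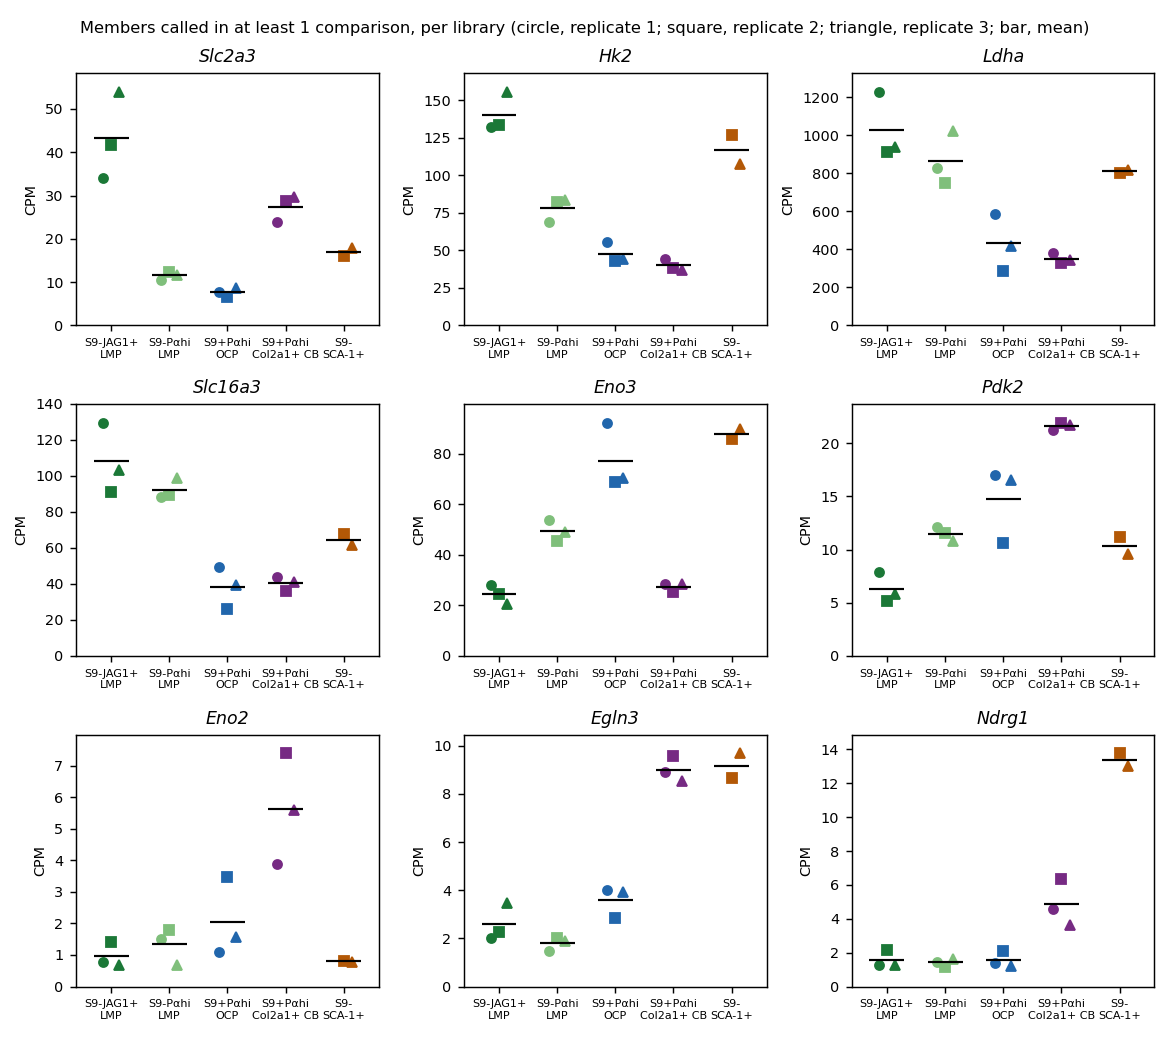
CPM (vertical axes, from 0) of the 9 members called in at least 1 comparison, in each library by population, with the mean as a bar. Hk2, Ldha and Slc16a3 are lowest in OCPs and chondroblasts, Eno3 is high in OCPs and S9-SCA-1+ cells, and Ndrg1 is near 13.4 CPM in S9-SCA-1+ cells, with 4.85 CPM or less in the other population means.

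In upper glycolysis the 11 members ranged from Aldoc, at 0.718 CPM per kilobase, to Aldoa, at 251. Hk2 is the hexokinase isozyme that insulin and hypoxia are known to raise. It held 132, 134 and 156 CPM in S9-JAG1+ LMPs, 69.2, 82.5 and 83.6 in S9-Pαhi LMPs, 55.8, 42.9 and 44.4 in OCPs, 44.1, 38.4 and 37.1 in chondroblasts, and 127 and 108 in S9-SCA-1+ cells. The S9-JAG1+ LMPs lay above every other population, and OCPs and chondroblasts overlapped. Between S9-JAG1+ LMPs and S9-SCA-1+ cells the difference of 0.26 on the log2 scale was not past the p threshold (adjusted p = 0.182, edgeR). Hk2 was lower in OCPs than in S9-JAG1+ LMPs by -1.56 on the log2 scale (SE 0.12; adjusted p = 3.09e-07, edgeR) and than in S9-Pαhi LMPs by -0.72 (SE 0.12; adjusted p = 0.00139), and higher in S9-JAG1+ than in S9-Pαhi LMPs by 0.84 (SE 0.12; adjusted p = 0.000166). Hk1, the constitutive hexokinase, was instead lowest in S9-JAG1+ LMPs, at 46.9 ± 1.22 CPM, and highest in S9-SCA-1+ cells, at 79.3 ± 2.71. The share of Hk2 in the reads per length of the pair was 71.0% ± 1.53 in S9-JAG1+ LMPs, 50.9% ± 3.59 in S9-Pαhi LMPs, 40.3% ± 3.00 in OCPs and 32.1% ± 3.03 in chondroblasts (n = 3 each), and 54.6% ± 2.02 in S9-SCA-1+ cells (n = 2).

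Among the phosphofructokinases, which catalyze the committed step, Pfkl fell from 370 ± 28.0 CPM in S9-JAG1+ LMPs to 181 ± 49.3 in OCPs, a log2 fold change of -1.03 (SE 0.15; adjusted p = 8.77e-05, edgeR), and was higher in S9-JAG1+ than in S9-Pαhi LMPs by 0.45 (SE 0.15; adjusted p = 0.0438), where leaving out S9-Pαhi LMP replicate 2 gave an adjusted p of 0.141 and leaving out S9-JAG1+ LMP replicate 1 or 2 gave 0.119 each. Pfkp was higher in S9-JAG1+ LMPs (13.2 ± 0.839 CPM) than in S9-Pαhi LMPs (7.63 ± 0.450), by 0.78 (SE 0.12; adjusted p = 0.000333). Pfkm, the muscle isozyme, stayed between 70.2 and 89.7 CPM in the 14 libraries. Pfkfb3, which makes the activator fructose 2,6-bisphosphate, had the same order as Pfkl among the LMPs and OCPs, and Pfkfb4 reached the p threshold only against S9-SCA-1+ cells. Aldoa, the aldolase of muscle and most embryonic tissues, was the most abundant of the group per length. It held 680, 524 and 495 CPM in S9-JAG1+ LMPs, 479, 459.5 and 663 in S9-Pαhi LMPs, 396, 243 and 316 in OCPs, 254, 240.0 and 243 in chondroblasts, and 715 and 701 in S9-SCA-1+ cells. It fell from S9-Pαhi LMPs to OCPs by 0.75 on the log2 scale (SE 0.17; adjusted p = 0.0112) and was higher by 0.85 in S9-SCA-1+ cells against all others (SE 0.15; adjusted p = 0.000439). Tpi1, the triose phosphate isomerase, fell from 423 ± 53.4 CPM in S9-Pαhi LMPs to 260.2 ± 93.0 in OCPs, by 0.70 (SE 0.20; adjusted p = 0.0332). Without OCP replicate 2, at 169 CPM, its log2 fold change was -0.48 (adjusted p = 0.0581), and without S9-Pαhi LMP replicate 3 it was -0.62 (adjusted p = 0.126). Aldoc was lower in S9-SCA-1+ cells, at 1.04 CPM against 2.23, by a log2 fold change of -1.06 (SE 0.33; adjusted p = 0.0203), and by -0.87 without S9-SCA-1+ replicate 3 (adjusted p = 0.197). The remaining member, Gpi1, averaged between 152 CPM in chondroblasts and 305 CPM in S9-SCA-1+ cells.

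Lower glycolysis was led by Pkm, the pyruvate kinase that makes pyruvate and ATP in the last step. It held 2520.3, 2447 and 2184 CPM in S9-JAG1+ LMPs, 2054, 1727 and 2238 in S9-Pαhi LMPs, 1644, 914 and 1275 in OCPs, 850.0, 732 and 803 in chondroblasts, and 2142 and 1969 in S9-SCA-1+ cells. Every OCP and chondroblast library lay below every library of the other populations. Pkm fell from OCPs to chondroblasts by 0.68 on the log2 scale (SE 0.16; adjusted p = 0.00748, edgeR). Eno1, the widespread enolase, fell by 0.75 in the same comparison (SE 0.15; adjusted p = 0.00253), from 219 ± 54.0 to 130.4 ± 10.1 CPM. Without OCP replicate 2 these log2 fold changes were -0.91 and -0.94. Pgam1, a phosphoglycerate mutase, fell from 172 CPM in S9-Pαhi LMPs to 109 CPM in OCPs (log2 fold change -0.66, SE 0.17; adjusted p = 0.019), and Pgk1, which forms the first ATP of lower glycolysis, was highest in S9-SCA-1+ cells, at 273 CPM, and lowest in chondroblasts, at 99.8 CPM.

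The other enolases did not follow Eno1. Eno3, the enolase of muscle, held 28.3, 24.3 and 20.4 CPM in S9-JAG1+ LMPs, 53.9, 45.4 and 49.0 in S9-Pαhi LMPs, 92.4, 69.0 and 70.3 in OCPs, 28.5, 25.5 and 28.4 in chondroblasts, and 86.0 and 89.8 in S9-SCA-1+ cells. It was thus high in OCPs and S9-SCA-1+ cells, which overlapped, and lowest in S9-JAG1+ LMPs and chondroblasts, which overlapped too. It was lower in S9-JAG1+ than in S9-Pαhi LMPs, at -1.02 (SE 0.13; adjusted p = 6.89e-05, edgeR), higher in OCPs than in S9-JAG1+ LMPs, at 1.67 (SE 0.13; adjusted p = 3.46e-07), and lower in chondroblasts than in OCPs, at -1.49 (SE 0.13; adjusted p = 4.39e-06). In the S9-SCA-1+ comparison it was higher, at 1.14 (SE 0.11; adjusted p = 1.9e-06), as was Pgam2, the muscle phosphoglycerate mutase, at 0.86 (SE 0.16; adjusted p = 0.000894). The myoblast markers named above moved with these 2 values in S9-SCA-1+ cells but not in OCPs, where they summed to 9.95 to 11.6 CPM. Pgam2 averaged 5.22 CPM in S9-SCA-1+ cells, 4.70 CPM in chondroblasts and between 1.71 and 3.48 CPM in the other populations. S9-SCA-1+ cells and chondroblasts did not differ past the p threshold (adjusted p = 0.543, edgeR). In chondroblasts the myoblast markers summed to 10.2 to 12.7 CPM. The part of these markers in the S9-SCA-1+ result was not tested. Eno3 made up 28.3% ± 2.47 of the enolase reads per length in OCPs, 6.18% ± 0.640 in S9-JAG1+ LMPs and 18.5% ± 0.665 in chondroblasts.

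Eno2, the enolase of neurons, was scarce, at 0.771, 1.42 and 0.674 CPM in S9-JAG1+ LMPs, 1.505, 1.81 and 0.697 in S9-Pαhi LMPs, and 1.10, 3.47 and 1.56 in OCPs. It reached 3.87, 7.39 and 5.58 CPM in chondroblasts and was 0.805 and 0.784 CPM in S9-SCA-1+ cells. The chondroblasts thus lay above all other libraries. Eno2 rose from OCPs to chondroblasts by 1.48 (SE 0.41; adjusted p = 0.0174, edgeR), and by 1.177, under the size for a call, without OCP replicate 1. From S9-JAG1+ LMPs to OCPs the log2 fold change was 1.07 (SE 0.46; adjusted p = 0.0788), but 0.47 without OCP replicate 2 (adjusted p = 0.407), and without S9-JAG1+ LMP replicate 1 or 3 the adjusted p was 0.191 or 0.224. It was lower in S9-SCA-1+ cells, at -1.30 (SE 0.47; adjusted p = 0.0402), but with either of their libraries left out the adjusted p was 0.18 or 0.199, and without OCP replicate 2 or S9-JAG1+ LMP replicate 2 the log2 fold change was -1.14 or -1.19. The 8 neural crest and glia markers summed to 46.6 to 53.8 CPM in chondroblasts, 26.9 to 33.2 in OCPs and 12.8 to 20.6 in the other populations, with 1 of the 8 at 0 in the chondroblasts, and their part in the Eno2 values was not tested.

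Gapdh, the glyceraldehyde phosphate dehydrogenase that is usually among the most abundant transcripts, held only 5.77 to 20.3 CPM. Of its 50-base windows, 25.1% also occur in another gene of the GENCODE annotation and 20.7% in at least 10 others, and the table kept 1 position for a read with several. The Gapdh level and its difference between the LMPs, at -0.73 (SE 0.29; adjusted p = 0.0895, edgeR), are therefore uncertain, and the difference was lost in 8 of the 14 fits that left out 1 library, with an adjusted p as high as 0.235. Windows shared with other genes made up 53.9% for Pgk1, 47.2% for Bnip3, 36.2% for Pgam1, 26.0% for Eno1 and 25.8% for Pkm, so that their counts may be split with copies. With the counts of the copy Eno1b added, the Eno1 log2 fold change from OCPs to chondroblasts was -0.80.

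Lactate and pyruvate handling was marked by an exchange of isozymes. Ldha, whose subunit favors the reduction of pyruvate to lactate, held 1229, 913 and 936 CPM in S9-JAG1+ LMPs, 831, 749 and 1021 in S9-Pαhi LMPs, 588, 286 and 419 in OCPs, 380.3, 329 and 344 in chondroblasts, and 803 and 819 in S9-SCA-1+ cells. Ldhb, whose subunit is better suited to turn lactate into pyruvate, held 129, 130.1 and 133 CPM in S9-JAG1+ LMPs, 174, 154 and 159 in S9-Pαhi LMPs, 287, 228 and 262 in OCPs, 233, 217 and 235 in chondroblasts, and 158 and 159.6 in S9-SCA-1+ cells. Both genes separated OCPs and chondroblasts from the other 3 populations without overlap, in opposite directions. Ldha was lower in OCPs than in S9-JAG1+ LMPs by -1.25 (SE 0.20; adjusted p = 0.000243, edgeR) and than in S9-Pαhi LMPs by -1.01 (SE 0.20; adjusted p = 0.00495). Without OCP replicate 2 these were -1.03 and -0.79, under the size for a call but past the p threshold, and without S9-JAG1+ LMP replicate 1 the former was -1.10. Ldhb was higher in OCPs than in S9-Pαhi LMPs by 0.67 (SE 0.08; adjusted p = 0.00012). The share of Ldhb in the reads per length of the pair was 16.1% ± 2.25 in S9-JAG1+ LMPs, 21.9% ± 2.73 in S9-Pαhi LMPs, 48.0% ± 6.12 in OCPs and 49.0% ± 1.40 in chondroblasts (n = 3 each), and 22.5% ± 0.117 in S9-SCA-1+ cells (n = 2). Of the 50-base windows of Ldhb, 21.0% also occur in another annotated gene.

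The lactate exporter Slc16a3 (MCT4) was, like Ldha, lower in OCPs and chondroblasts than in the LMPs. In S9-SCA-1+ cells it lay between these levels. Its libraries held 129.6, 90.9 and 104 CPM in S9-JAG1+ LMPs, 88.0, 89.1 and 98.7 in S9-Pαhi LMPs, 49.4, 25.9 and 39.5 in OCPs, 43.8, 36.3 and 41.2 in chondroblasts, and 67.8 and 61.5 in S9-SCA-1+ cells. It was lower in OCPs than in S9-Pαhi LMPs by -1.26 (SE 0.18; adjusted p = 0.00046, edgeR) and than in S9-JAG1+ LMPs by -1.49 (SE 0.18; adjusted p = 2.25e-05). The former was -1.06 and no longer called without OCP replicate 2. Slc16a1 (MCT1), a carrier for lactate in both directions, was higher in S9-JAG1+ than in S9-Pαhi LMPs by 0.46 (SE 0.14; adjusted p = 0.0261).

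The kinases that hold back pyruvate dehydrogenase differed from each other. Pdk2 held 7.88, 5.20 and 5.79 CPM in S9-JAG1+ LMPs, 12.2, 11.55 and 10.8 in S9-Pαhi LMPs, 17.0, 10.7 and 16.5 in OCPs, 21.2, 21.9 and 21.7 in chondroblasts, and 11.2 and 9.55 in S9-SCA-1+ cells. The S9-JAG1+ libraries were the lowest and the chondroblast libraries the highest, without overlap. Pdk2 was lower in S9-JAG1+ than in S9-Pαhi LMPs by -0.87 (SE 0.18; adjusted p = 0.00308, edgeR) and higher in OCPs than in S9-JAG1+ LMPs by 1.23 (SE 0.18; adjusted p = 9.57e-05), a value close to the size for a call. Without OCP replicate 1 or 3, or without S9-JAG1+ LMP replicate 2 or 3, it lay between 1.10 and 1.17. Pdk1, the kinase known as a HIF target, rose from OCPs to chondroblasts by 0.69 (SE 0.17; adjusted p = 0.00775), from 35.3 ± 6.55 to 56.8 ± 2.08 CPM. Pdk3 stayed between 46.2 and 64.4 CPM and did not pass the joint test (adjusted p = 0.329).

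**Figure D5:**
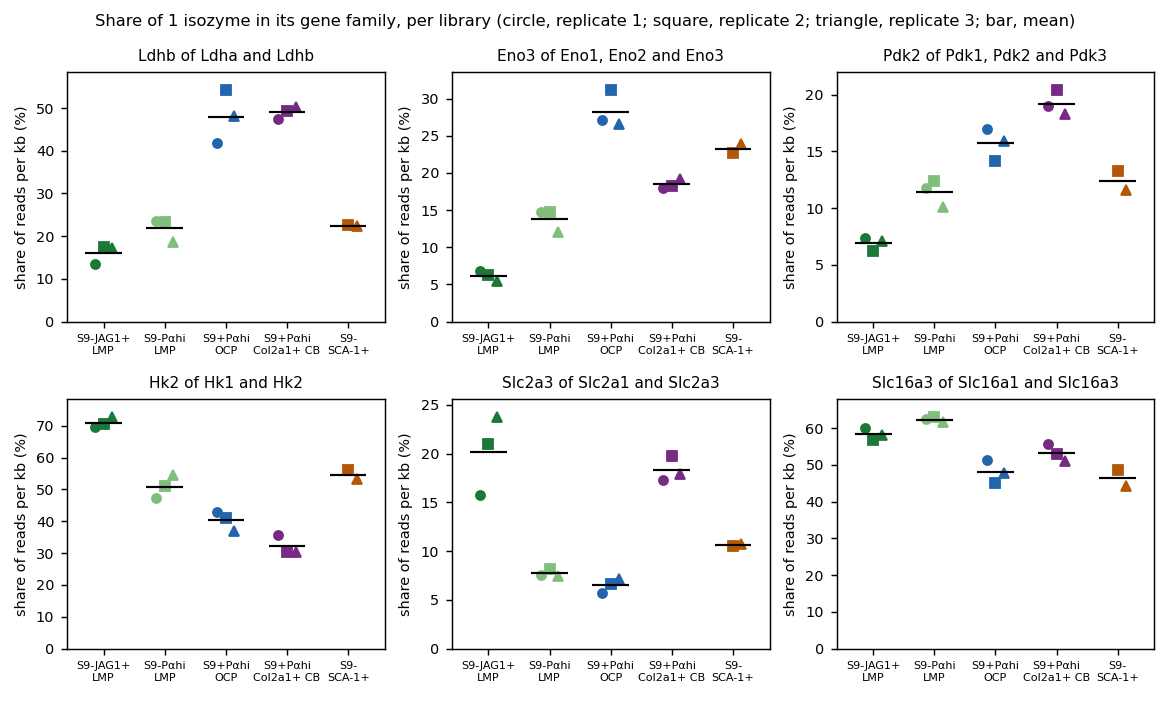
Share of 1 isozyme in the reads per length of its family (vertical axes, percent, from 0) in each library by population, with the mean as a bar. The Ldhb share is 16.1% in S9-JAG1+ LMPs and 48.0% in OCPs, while the Hk2 share goes from 71.0% to 40.3%.

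HIF-1 binds DNA at a short core, written here as ACGTG on either strand, and the promoters of the genes called between S9-JAG1+ LMPs and OCPs were read for it. The 250 bases before a start of transcription came from the RefSeq table for GRCm38.p6, which had 33 of the 35 members (all but Slc2a3 and Ndrg1). Each gene was read at the most upstream start in that table. For some members the window lay inside the RefSeq gene span, among them Eno3 (chr11, from 70653125) and Slc16a3 (chr11, from 120948484). Starts farther upstream were not read for these. The core was present in 16 of these 33 promoters (48.5%), against 16.5% of 27025 genes, and CACGTG, a palindrome that holds the core and is also bound by other factors, in 6 (18.2%), against 6.04%. The members were listed by role, some of them as HIF targets, and the 27025 genes include genes not tested here, so the shares are not a like comparison. The median GC content of the members' promoters was 62.4% against 52% over all genes. The parts of base composition and of the choice of members in these shares were not tested. The promoters of the 5 members with an entry that were called in that comparison are shown from 5′ to 3′ on the strand of the gene, with the core, or CACGTG around it, in capitals. Hk2, Ldha and Slc16a3 were lower in OCPs, and Pdk2 and Eno3 were higher.
Hk2, chr6:82774455-82774704, minus strand: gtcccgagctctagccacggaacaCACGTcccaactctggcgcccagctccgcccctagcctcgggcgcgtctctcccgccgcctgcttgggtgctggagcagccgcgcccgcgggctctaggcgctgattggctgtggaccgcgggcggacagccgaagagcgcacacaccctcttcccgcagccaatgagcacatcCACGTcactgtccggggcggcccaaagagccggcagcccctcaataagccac
Ldha, chr7:46845554-46845803, plus strand: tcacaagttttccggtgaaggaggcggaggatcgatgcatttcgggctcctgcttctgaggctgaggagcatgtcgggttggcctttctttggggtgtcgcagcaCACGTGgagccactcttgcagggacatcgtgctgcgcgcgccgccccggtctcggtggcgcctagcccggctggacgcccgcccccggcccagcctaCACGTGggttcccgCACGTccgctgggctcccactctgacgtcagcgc
Slc16a3, chr11:120948817-120949066, plus strand: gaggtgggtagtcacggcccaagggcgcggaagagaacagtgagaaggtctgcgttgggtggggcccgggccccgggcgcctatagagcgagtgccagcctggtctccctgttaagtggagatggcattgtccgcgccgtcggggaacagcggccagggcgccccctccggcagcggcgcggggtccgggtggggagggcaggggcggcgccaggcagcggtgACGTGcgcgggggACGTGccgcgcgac
Pdk2, chr11:95041372-95041621, minus strand: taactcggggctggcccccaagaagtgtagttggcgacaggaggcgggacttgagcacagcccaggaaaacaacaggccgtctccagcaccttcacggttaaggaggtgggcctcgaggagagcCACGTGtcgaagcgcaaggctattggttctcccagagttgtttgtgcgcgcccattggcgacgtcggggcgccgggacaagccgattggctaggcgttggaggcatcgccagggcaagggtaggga
Eno3, chr11:70656926-70657175, plus strand: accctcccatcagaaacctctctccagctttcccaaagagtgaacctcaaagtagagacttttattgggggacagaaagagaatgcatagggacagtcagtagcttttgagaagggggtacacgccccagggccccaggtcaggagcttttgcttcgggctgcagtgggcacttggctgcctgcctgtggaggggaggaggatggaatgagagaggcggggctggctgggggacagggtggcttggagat
Ldha held CACGTG in 2 places and the core alone in 1, and Pdk2 held CACGTG in 1. Hk2 and Slc16a3 held the core in 2 places each. Eno3 had no match in this window. The core was thus found both in genes that fell and in a gene that rose, and a match describes the letters only.

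Between the highest and lowest population means, Hif1a RNA varied 1.15-fold and Egln1 RNA 1.30-fold, while Egln3, described below, varied 5.10-fold. Hif1a, the oxygen-regulated subunit, held 243, 229 and 230.4 CPM in S9-JAG1+ LMPs, 216, 220.0 and 219 in S9-Pαhi LMPs, 203, 211 and 222 in OCPs, 235, 229 and 266 in chondroblasts, and 217 and 227 in S9-SCA-1+ cells. OCPs, S9-Pαhi LMPs and S9-SCA-1+ cells overlapped at the lower levels, and S9-JAG1+ LMPs and chondroblasts at the higher ones. The joint test gave an adjusted p of 0.106 (edgeR), and over the 10 pairs of populations the chondroblasts were higher, past the p threshold, than OCPs, by 0.20 (adjusted p = 0.0502), and than S9-Pαhi LMPs, by 0.16 (adjusted p = 0.0779). The former was lost in 5 of the 14 fits that left out 1 library, with adjusted p values of 0.324 without chondroblast replicate 3, 0.133 without OCP replicate 1, 0.106 without OCP replicate 2, and 0.107 and 0.108 without S9-JAG1+ LMP replicates 2 and 3. Egln1, the main HIF prolyl hydroxylase, averaged between 103 CPM in chondroblasts and 133 CPM in S9-JAG1+ LMPs.

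The targets did not all move together. Egln3, a prolyl hydroxylase that HIF is known to raise, held 2.01, 2.26 and 3.49 CPM in S9-JAG1+ LMPs, 1.46, 2.03 and 1.89 in S9-Pαhi LMPs, 4.02, 2.85 and 3.91 in OCPs, 8.91, 9.58 and 8.52 in chondroblasts, and 8.64 and 9.69 in S9-SCA-1+ cells. Chondroblasts and S9-SCA-1+ cells overlapped and lay above all other libraries. Egln3 rose from S9-Pαhi LMPs to OCPs by 1.00 (SE 0.22; adjusted p = 0.00893, edgeR) and from OCPs to chondroblasts by 1.32 (SE 0.20; adjusted p = 0.000352), and was higher in S9-SCA-1+ cells by 1.38 (SE 0.17; adjusted p = 1.78e-05). The rise to chondroblasts was 1.15 without OCP replicate 2, under the size for a call. Ndrg1, a stress- and differentiation-responsive gene, held 1.28, 2.18 and 1.27 CPM in S9-JAG1+ LMPs, 1.46, 1.17 and 1.64 in S9-Pαhi LMPs, 1.38, 2.09 and 1.23 in OCPs, 4.61, 6.33 and 3.61 in chondroblasts, and 13.8 and 13.0 in S9-SCA-1+ cells. These levels made 3 separate steps, with LMPs and OCPs together at the lowest. Ndrg1 rose from OCPs to chondroblasts by 1.64 (SE 0.27; adjusted p = 0.000665) and was higher in S9-SCA-1+ cells by 2.72 (SE 0.20; adjusted p = 1.01e-07). Without replicate 3, the library with most of the red blood cell transcripts, the S9-SCA-1+ differences were 2.76 for Ndrg1 and 1.30 for Egln3.

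Vegfa, which encodes the main vessel growth factor and is a classical HIF target, did not go with Egln3 and Ndrg1. Its mean was 116 CPM in each kind of LMP, 152 ± 29.7 CPM in OCPs, 108 ± 21.9 in chondroblasts and 65.5 ± 1.76 in S9-SCA-1+ cells. The OCP libraries held 130, 186 and 141 CPM of Vegfa. It was higher in OCPs than in S9-JAG1+ LMPs by 0.40 (SE 0.15; adjusted p = 0.0499, edgeR). Without OCP replicate 2 this difference was 0.22 (adjusted p = 0.22). It was lower in S9-SCA-1+ cells by -0.90 (SE 0.15; adjusted p = 0.000353, edgeR). Bnip3, a mitophagy receptor induced by hypoxia, was also lowest there, at 22.6 CPM, and highest in S9-Pαhi LMPs, at 39.8 CPM. Ankrd37 held 2.64 to 6.15 CPM and gave an adjusted p of 0.1002 in the joint test, and 26.4% of its exon bases lie opposite another gene, as do 22.3% of those of Bnip3, so that their counts may include reads of the other strand, since the strand setting is not stated.

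Further genes of the same pathways, 43 for glucose and pyruvate, 8 for the pentose phosphate pathway, 15 for the HIF pathway and 39 known to be raised by hypoxia, were counted in the same way. Of all tested genes 25.8% were higher and 21.9% lower from S9-JAG1+ LMPs to OCPs, and 11.8% and 8.35% from S9-Pαhi LMPs to OCPs. From S9-JAG1+ LMPs to OCPs, 8 of the 37 tested glucose and pyruvate genes were higher and 9 lower past the p threshold, shares near those of all genes, with a median log2 fold change of -0.01. Of the 8 pentose phosphate genes 4 were lower and none higher there, and the same counts were found from S9-Pαhi LMPs to OCPs. In the HIF pathway 4 of 15 were higher and 3 lower from S9-JAG1+ LMPs to OCPs, and Epas1, which encodes HIF-2α, was called lower, at 2.79 CPM in S9-JAG1+ LMPs and 1.21 CPM in OCPs. Of the 39 hypoxia-induced genes 10 were higher and 13 lower. Among them 4 were called higher and 2 lower, as 9.03% and 3.46% of all genes were. The names that follow show 1 direction, since only genes called higher are named here. Of these, Ddit4, an inhibitor of mTORC1, rose from 16.3 ± 3.11 CPM in S9-JAG1+ LMPs to 91.7 ± 22.1 in OCPs (log2 fold change 2.49, SE 0.21; adjusted p = 4.94e-07, edgeR), and Igfbp3, an IGF binding protein, from 4.06 to 42.0 CPM. Of the 37 tested glucose and pyruvate genes 3 were called higher and none lower from S9-JAG1+ LMPs to OCPs (9.03% and 3.46% of all genes). Pygl, a glycogen phosphorylase, rose from 1.55 ± 0.286 to 6.51 ± 0.367 CPM (log2 fold change 2.06, SE 0.16; adjusted p = 2.56e-07), and Slc2a12, another glucose transporter, from 0.550 to 2.40 CPM. Fbp2, a fructose bisphosphatase of gluconeogenesis, held 0.761 to 1.41 CPM in OCPs but 0 to 2 reads in each S9-JAG1+ LMP library, under the 3 reads taken as the floor. Pdk4, the Pdk gene induced by fasting, was called higher in chondroblasts than in OCPs, at 2.20 against 0.420 CPM, and higher in S9-SCA-1+ cells, at 3.85 CPM. Of the 37 tested glucose and pyruvate genes 2 were called higher and none lower from OCPs to chondroblasts (6.60% and 1.16% of all genes). In S9-SCA-1+ cells 1 was called higher and 4 lower (4.46% and 6.80%).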

How the data were processed

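The deposited table held raw counts of reads per gene, and the authors normalized nothing in it. Per their methods, single reads of poly(A)+ RNA were aligned to mm10 (STAR; 1 position kept per read) and counted with qCount (QuasR) by RefSeq gene. The strand setting is not stated. Of 24454 Entrez identifiers, 24374 matched RefSeq symbols, and the rest held 0.358% of the reads.

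Tests used edgeR 4.0.16 (R 4.3.3). Genes passing filterByExpr by population (15125) were kept, totals were TMM-scaled (factors 0.957 to 1.06), 1 mean per population was fitted to all 14 libraries, and p-values were adjusted over all tested genes (Benjamini-Hochberg). SE is the log2 fold change divided by the root of F. Scripts were tested on simulated data. Isozyme shares are ratios of counts per kilobase. Exact windows of 50 bases were compared over GENCODE M21 transcripts.

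Members, roles and lists were chosen with earlier results of these data known, as were the isozyme shares. Full statistics are given for up to 8 members per comparison with the largest log2 fold change past the p threshold, and values per library for called members and the most abundant member of each role. Alternatives were other scaling, filters, thresholds and tests (DESeq2 1.42.0), fewer populations, a replicate block and each library left out. Eno1 with Eno1b was added after the data were seen.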

Additional observations from a re-analysis of the deposited data

How the results depend on the processing

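Of the 97 log2 fold changes of members past the p threshold, none changed sign under any alternative run. DESeq2's test kept all 97 past the threshold, its size factors 95, library totals 94, no filter 92, a mean of at least 1 CPM 96 and an adjusted p of at most 0.05 82, while fits with only the compared populations kept 58 of 73. In those fits the members past the p threshold from S9-Pαhi LMPs to OCPs numbered 12 instead of 21, and the fit then has fewer libraries. With the size for a call set to 1 the called members numbered 2 between the LMPs, 3 from S9-Pαhi LMPs to OCPs and 5 in S9-SCA-1+ cells. With each library left out in turn, called members ranged from 0 to 2 from S9-Pαhi LMPs to OCPs (0 without OCP replicate 2, 2 without replicate 1). Members past the p threshold ranged from 10 to 22 from OCPs to chondroblasts (22 without OCP replicate 2) and from 15 to 27 in S9-SCA-1+ cells (15 without replicate 3, 27 without OCP replicate 2). With each library left out in turn, 66 of the 97 stayed past the p threshold in every fit. The labels do not say whether libraries with the same replicate number share embryos. Their deviations correlated at -0.18 to 0.31 over 26 pairs, 4 of them above 0.1, beside -0.31 to 0.41 over 52 pairs with different numbers, 6 of them above 0.1, so no shared effect of a number was detected. With the replicate block, 95 of the 97 stayed past the threshold (not Gapdh between the LMPs nor Pgam2 from S9-Pαhi LMPs to OCPs), and members past it numbered 12, 22, 26, 15 and 26 in the 5 comparisons, in the order S9-JAG1+ against S9-Pαhi LMPs, OCPs against S9-Pαhi LMPs, OCPs against S9-JAG1+ LMPs, chondroblasts against OCPs and S9-SCA-1+ cells against the rest. Depth limits the scarce members, since Eno2 had as few as 14 reads in a library, and 3 reads correspond to 0.101 to 0.149 CPM.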

Other observations

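Among the genes known to be raised by hypoxia, S9-SCA-1+ cells had 6 of 39 called higher and 1 lower than the mean of the other 4 populations, as 4.46% and 6.80% of all genes were. Cxcr4, the receptor that guides migrating muscle precursors, was at 81.0 and 91.9 CPM in the S9-SCA-1+ libraries and at 1.65 CPM or less in every other library. Stc2 (4.52 against 1.03 CPM), Rora (18.9 against 6.53 CPM), Lox (17.8 against 6.29 CPM), Stc1 (23.3 against 9.12 CPM) and Car9 (2.05 against 0.839 CPM) were called higher too. Adm was called lower, with 0 and 3 reads in these libraries. The median log2 fold change over the 39 genes was 0.03, beside -0.01 over all tested genes. The myoblast and red blood cell markers given above moved with these values, and their part in them was not tested.

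Lox, the enzyme that crosslinks collagen, also separated the other populations. It was called lower in S9-JAG1+ LMPs (0.821 CPM) than in S9-Pαhi LMPs (9.39 CPM), lower in OCPs (2.90 CPM) than in S9-Pαhi LMPs, and higher in chondroblasts (12.0 CPM) than in OCPs.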
